A study of Mus musculus with 6 samples.

Results

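The NRF2 antioxidant response was examined through 10 genes of the mouse transcriptome: Nfe2l2, which encodes the transcription factor NRF2, Keap1, which encodes its inhibitor, and 8 genes that NRF2 is known to bind and induce (Nqo1, Hmox1, Gclc, Gclm, Srxn1, Txnrd1, Slc7a11 and Gsr). The genes were chosen by symbol, and all 10 were found among the 23420 genes of the count table. In MSC-TPr, Nqo1 was 4.10-fold lower than in Ctl MSC, Hmox1 was 1.81-fold higher without passing the test over all genes, and no other gene of this group kept MSC-TPr and Ctl MSC apart in every library.

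Mesenchymal stromal cells (MSCs) grown from the bone marrow of young adult female C57BL/6 mice were transduced with a retroviral construct that also carries eGFP. MSC-TPr received the construct coding for the thymoproteasome (TPr) subunits β1i, β2i and β5t, and Ctl MSC received its empty backbone, so that both groups carry the vector. Polyadenylated RNA was sequenced from 3 libraries per group, and nothing in the labels says that the libraries of a group came from separate cultures, so p-values measure the spread between these libraries. The sources used here name neither the promoter of the construct nor any cloning of the transduced cells.

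NRF2 is made continuously and is held in the cytoplasm by KEAP1, which passes it to a ubiquitin ligase and hence to the proteasome. When oxidants or electrophiles modify KEAP1, NRF2 escapes degradation, enters the nucleus, pairs with a small MAF protein and binds antioxidant response elements (AREs) beside its target genes. The targets encode enzymes that make and recycle glutathione and thioredoxin, reduce quinones and break down haem. The control of NRF2 is largely at the protein level, which RNA-seq does not measure.

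Between 16158756 and 22158887 reads per library fell on genes, and 3 reads, taken as the lowest detectable amount, correspond to 0.139 to 0.181 CPM (reads scaled by library size), counting error only. Across all 11974 genes tested, Ctl MSC 1 was nearest to MSC-TPr 3, and MSC-TPr 1 was nearest to Ctl MSC 3. The summed level of 20 cell division genes followed the same split, with 2691, 521 and 528 CPM across Ctl MSC 1, 2 and 3, against 548, 2799 and 2651 CPM across MSC-TPr 1, 2 and 3. The libraries numbered 1 therefore stood apart from their groups, and each member is given with all 6 libraries and with only the libraries numbered 2 and 3. Ctl MSC 2 and Ctl MSC 3 were very alike, with a root mean square log2 difference of 0.182, against 0.389 between MSC-TPr 2 and MSC-TPr 3. The SEs and p-values from the libraries numbered 2 and 3 rest on this small spread. The transduced genes did not separate the groups: Psmb11 (β5t) had 1 to 6 reads per library, and Psmb9 and Psmb10 were highest in Ctl MSC 1, at 3.38 and 27.8 CPM. MSC-TPr and Ctl MSC therefore stand below for the libraries so labelled, and each direction is one between labels. Of 8 stromal marker genes, Thy1 (CD90) had 1 read in all libraries together, Nt5e (CD73) was lower in MSC-TPr without overlap (2.66 to 5.24 CPM, against 11.4 to 20.2 CPM), and the other 6 had at least 555 reads in every library. Of 4 endothelial markers, Kdr had 9 to 54 reads and the others 0 to 6 reads per library.

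Levels of the genes were compared relative to exon length, in CPM per kb of exon. In Ctl MSC, Hmox1 was the most abundant at 366 ± 32.4 (SD, n = 3), followed by Txnrd1 at 206 ± 69.9 and Srxn1 at 81.0 ± 7.12 CPM per kb. The libraries of these genes did not overlap one another. Gclc (51.4 ± 16.7), Nfe2l2 (42.6 ± 9.30) and Gsr (38.8 ± 5.79) overlapped as neighbours in this order. Nqo1 came next at 31.8 ± 2.53 CPM per kb, below every Gsr value, and Slc7a11 (22.1 ± 12.2) overlapped both Nqo1 and Gclm (13.9 ± 1.60). Keap1 had the lowest mean, 9.62 CPM per kb, with every library below those of Gclm, but it overlapped Slc7a11, which was at 8.13 CPM per kb in Ctl MSC 1. In MSC-TPr the order was the same at its top, with Hmox1 at 661 ± 174 CPM per kb, and Nqo1 had moved to the bottom at 7.77 ± 1.64 CPM per kb, overlapping Keap1 at 8.70 ± 1.51 CPM per kb (SD, n = 3 each).

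**Figure D1:**
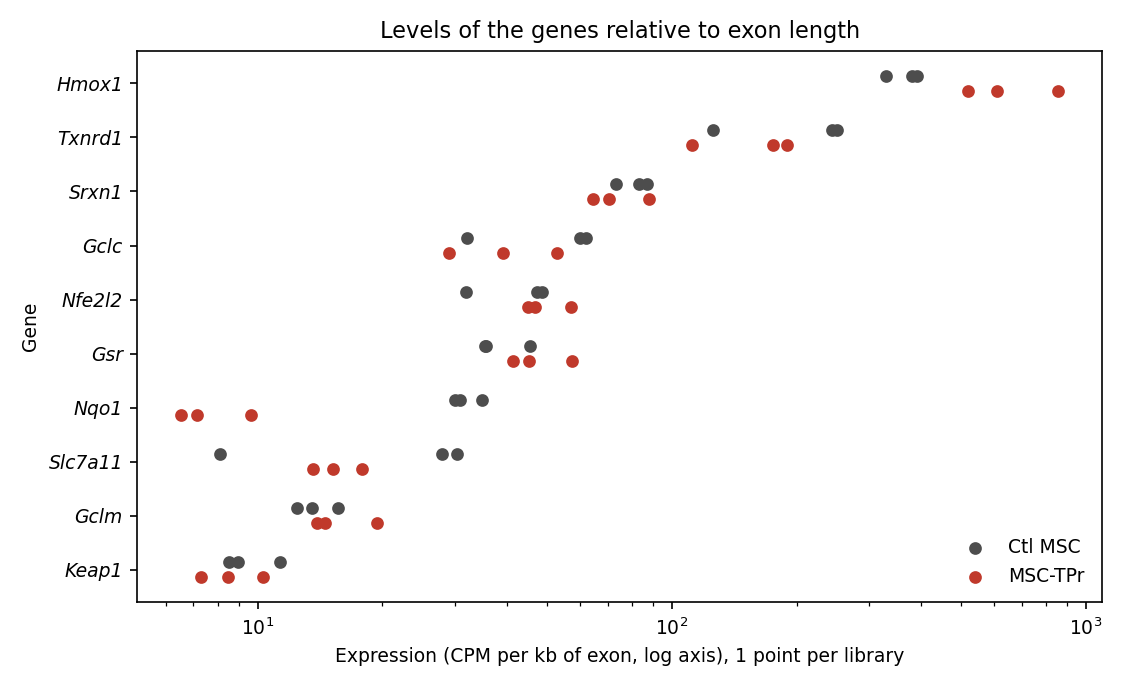
Expression in CPM per kb of exon (log axis) of each gene, 1 point per library, with Ctl MSC in grey above MSC-TPr in red. Hmox1 lies at the top in both groups, and Nqo1 drops from 31.8 to 7.77 CPM per kb on average, to the level of Keap1.

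Whether MSC-TPr differed from Ctl MSC in this response was asked gene by gene. A gene was called when its adjusted p was under 0.05 (edgeR's quasi-likelihood test on 11974 genes, Benjamini-Hochberg) and its log2 fold change was at least 0.5 in size. Over all 6 libraries 1 of the 10 genes, Nqo1, was called lower, where 0.401% of all genes tested were, and 0 were called higher, where 0.0251% were (0.426% in either direction). At an unadjusted p under 0.05 there was 1 gene higher and 1 lower, against 15.0% of all genes in either direction, and DESeq2 called 1 higher (Hmox1) and 1 lower (Nqo1), against 4.07% of its genes. The groups did not overlap for 2 of the 10 genes, and for 22.6% of all genes tested. The median log2 fold change of the 10 genes was −0.13, with 4 above and 6 below 0, and that of all genes tested was 0.01.

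With the libraries numbered 2 and 3 alone, 2 of the 10 genes were called higher and 4 lower, where 20.6% and 19.4% of 12122 genes tested were called (40.0% in either direction). The median log2 fold change was then −0.01. In these libraries the label cannot be told apart from the cell division level. The 20 cell division genes summed to 521 and 528 CPM in Ctl MSC 2 and 3, against 2799 and 2651 CPM in MSC-TPr 2 and 3. This holds for every value given below for the libraries numbered 2 and 3.

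**Figure D2:**
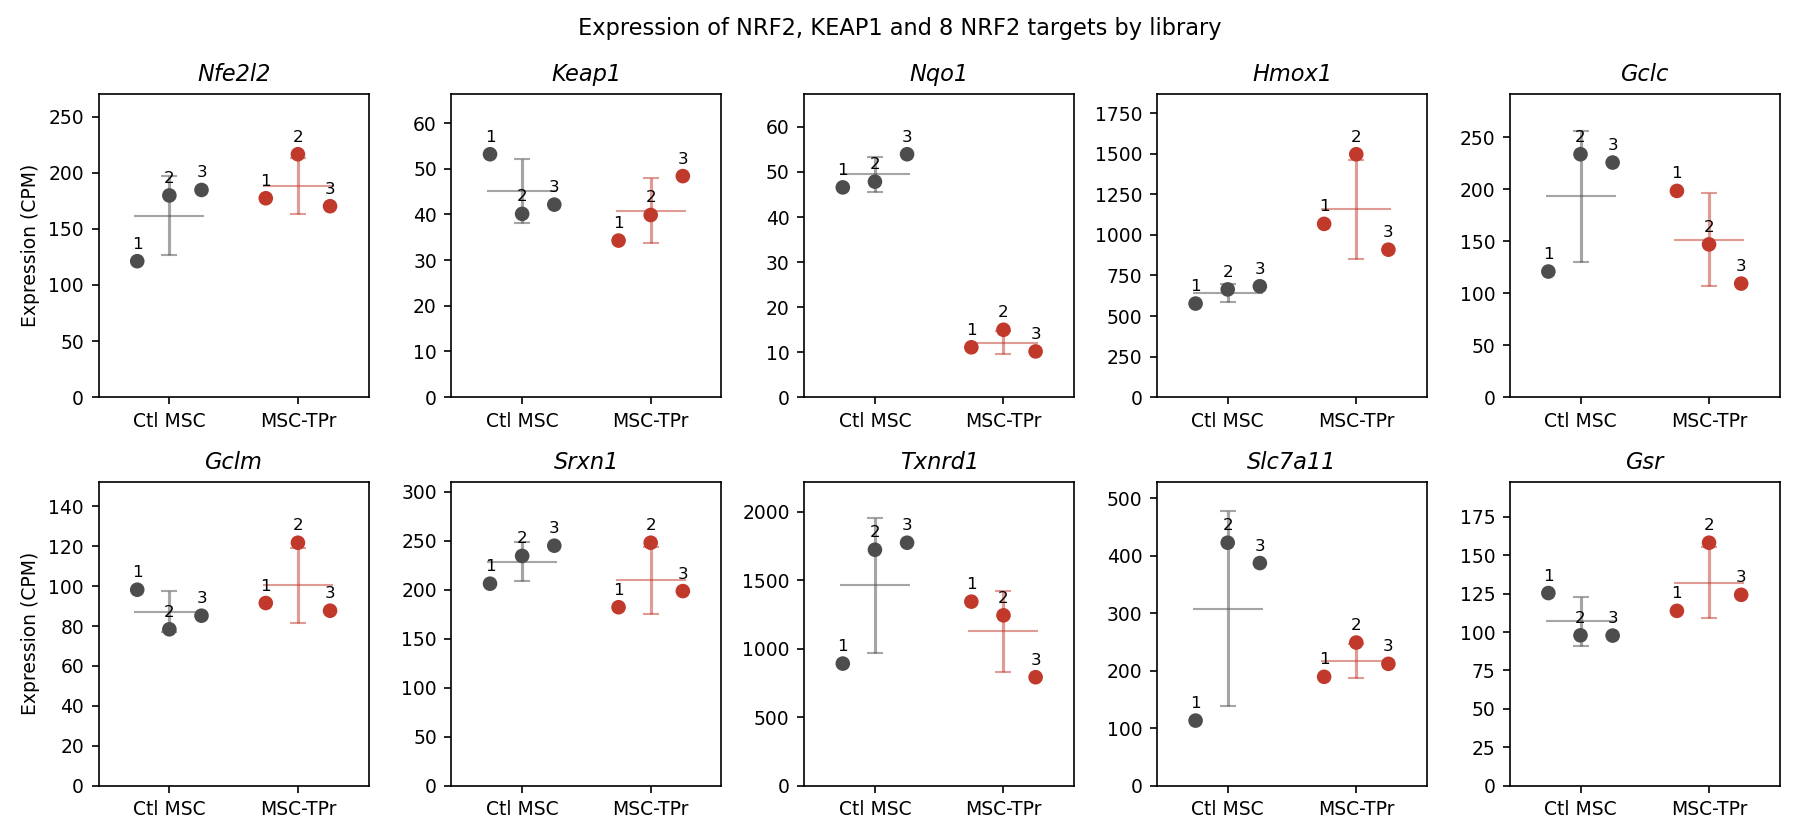
Expression in CPM (linear axes from 0) of the 10 genes in each library, numbered as in the labels, with the mean and SD of each group (n = 3). Nqo1 and Hmox1 are the genes whose groups do not overlap; Nqo1 averages 49.5 CPM across Ctl MSC, against 12.1 CPM across MSC-TPr.

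Start-site sequences were examined for the letters of the ARE core, TGACNNNGC, on both strands, and for those of the AP-1 site, TGANTCA, which can share bases with it. RefSeq windows (GRCm38.p6) of 250 bases before to 50 after a start were available for 7 of the 10 genes, 9 windows in all, of which 4 hold the ARE core, against 12.4% of 32851 windows. The AP-1 letters occur in 1 of the 9, Srxn1, and in 7.81% of all windows, and share no base with a match to TGACNNNGC there. The AP-1 match at bases 206 to 212 of the Srxn1 window runs on to read TGAGTCAGC. The letters searched for require C after TGA, so this stretch was not counted or marked as an ARE core. Shown are the window of Nqo1, the gene that fell, at chr8:107403156-107403455 on the minus strand, and the windows with a match: Nfe2l2 at chr2:75704614-75704913 on the minus strand, and Gclm at chr3:122245307-122245606, Srxn1 at chr2:152105274-152105573 and a start of Txnrd1 at chr10:82858956-82859255, all on the plus strand. Capitals mark the ARE core, written 5′ to 3′ along the gene, and all else is in lower case.
Nqo1: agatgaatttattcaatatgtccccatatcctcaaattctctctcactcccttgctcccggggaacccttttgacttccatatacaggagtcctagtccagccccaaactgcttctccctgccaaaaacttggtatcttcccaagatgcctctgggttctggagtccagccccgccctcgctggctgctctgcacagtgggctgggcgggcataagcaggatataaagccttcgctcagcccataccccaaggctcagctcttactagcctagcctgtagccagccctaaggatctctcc
Nfe2l2: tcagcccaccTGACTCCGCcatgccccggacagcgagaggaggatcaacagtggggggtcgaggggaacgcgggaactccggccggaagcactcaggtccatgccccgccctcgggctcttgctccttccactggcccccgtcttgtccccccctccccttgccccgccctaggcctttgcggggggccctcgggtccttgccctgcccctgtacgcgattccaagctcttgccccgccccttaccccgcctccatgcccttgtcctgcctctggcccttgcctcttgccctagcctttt
Gclm: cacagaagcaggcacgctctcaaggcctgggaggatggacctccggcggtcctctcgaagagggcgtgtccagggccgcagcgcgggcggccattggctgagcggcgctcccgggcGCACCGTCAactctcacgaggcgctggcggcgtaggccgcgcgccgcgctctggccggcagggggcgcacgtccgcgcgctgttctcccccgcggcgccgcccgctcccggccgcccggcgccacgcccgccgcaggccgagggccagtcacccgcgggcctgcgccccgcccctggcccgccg
Srxn1: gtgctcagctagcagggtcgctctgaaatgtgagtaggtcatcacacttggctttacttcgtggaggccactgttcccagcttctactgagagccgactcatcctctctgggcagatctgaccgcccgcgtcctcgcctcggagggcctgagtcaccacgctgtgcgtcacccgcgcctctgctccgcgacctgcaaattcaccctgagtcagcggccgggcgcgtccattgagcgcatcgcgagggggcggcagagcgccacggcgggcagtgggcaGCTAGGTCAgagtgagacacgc
Txnrd1: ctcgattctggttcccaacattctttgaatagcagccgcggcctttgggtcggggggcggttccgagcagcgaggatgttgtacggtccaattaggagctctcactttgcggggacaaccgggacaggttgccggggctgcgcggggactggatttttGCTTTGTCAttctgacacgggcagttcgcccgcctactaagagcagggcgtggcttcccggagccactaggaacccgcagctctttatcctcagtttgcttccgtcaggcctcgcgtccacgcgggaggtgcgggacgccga
The match reads TGACTCCGC in Nfe2l2, at bases 11 to 19 of the window, and lies on the opposite strand in Gclm (bases 117 to 125), Srxn1 (279 to 287) and Txnrd1 (159 to 167). Nqo1, which was called lower, has no such letters in its window. Of the 4 genes that have them, none was called with all 6 libraries (edgeR), and Txnrd1 was called lower with the libraries numbered 2 and 3. AREs may also lie farther from a start, and a match is a description of the letters, not of binding.

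Nqo1 encodes the quinone reductase NQO1, which uses NADH or NADPH to reduce quinones in a single step and is the classical readout of NRF2. It lies on chromosome 8 of mm10, from 107388225 to 107403206 on the minus strand. Its level was 46.6, 47.9 and 53.9 CPM across Ctl MSC 1, 2 and 3, against 11.1, 15.0 and 10.2 CPM across MSC-TPr 1, 2 and 3. All MSC-TPr libraries lay below all Ctl MSC libraries, and the libraries numbered 1 lay with the others of their own label. Nqo1 fell, with a log2 fold change of −2.04 from all 6 libraries (SE 0.208, edgeR adjusted p = 0.0220) and −2.02 from the libraries numbered 2 and 3 (SE 0.204, edgeR adjusted p = 0.000980). With 1 library left out at a time the log2 fold change stayed between −2.21 and −1.92, and the edgeR adjusted p ran from 0.0283 without Ctl MSC 1 to 0.141 without MSC-TPr 3. The call was kept only without Ctl MSC 1 (0.0283) and was lost without Ctl MSC 2 (0.129), Ctl MSC 3 (0.126), MSC-TPr 1 (0.0555), MSC-TPr 2 (0.112) or MSC-TPr 3 (0.141). Of all genes tested, 0 were called without Ctl MSC 2, Ctl MSC 3 or MSC-TPr 3, and 1 without MSC-TPr 2. Without MSC-TPr 1, 11 were called higher and 33 lower. The unadjusted edgeR p of Nqo1 ran from 5.45e-05 without MSC-TPr 2 to 0.000299 without Ctl MSC 3.

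Nqo2, the paralogue of Nqo1, which uses another hydride donor, did not separate the groups. Its mean was 34.7 ± 12.4 CPM for Ctl MSC, highest in Ctl MSC 1, against 29.9 ± 6.84 CPM for MSC-TPr (SD, n = 3 each), with overlapping groups (log2 fold change −0.22, SE 0.304, edgeR adjusted p = 0.789). Relative to exon length, the ratio of Nqo1 to Nqo2 was 2.47, 4.51 and 5.10 across Ctl MSC 1, 2 and 3, against 1.30, 1.10 and 0.826 across MSC-TPr 1, 2 and 3.

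Hmox1 encodes haem oxygenase 1, the inducible enzyme that splits haem into biliverdin, iron and carbon monoxide, and is also repressed by BACH1. It lies on chromosome 8 from 75093621 to 75100589 on the plus strand. Its level was 577, 664 and 683 CPM across Ctl MSC 1, 2 and 3, against 1067, 1497 and 909 CPM across MSC-TPr 1, 2 and 3. Every MSC-TPr library lay above every Ctl MSC library, in the direction opposite to Nqo1. The log2 fold change was 0.85 with all 6 libraries (SE 0.229, edgeR adjusted p = 0.183, unadjusted p = 0.00828) and 0.84 over the libraries numbered 2 and 3 (SE 0.239, edgeR adjusted p = 0.0318). DESeq2 gave 0.86 with an adjusted p of 0.0277 from all 6 libraries, and with the cell division level as a covariate edgeR gave 0.86 (SE 0.217, adjusted p = 0.0408). With 1 library left out at a time it was between 0.63 and 1.01 and did not pass in any of the 6 fits (edgeR adjusted p = 0.165 to 0.582). Macrophages are rich in Hmox1, and the summed level of 8 haematopoietic and macrophage markers was 11.2 to 14.6 CPM in Ctl MSC and 13.0 to 17.5 CPM in MSC-TPr, and its part in the result was not tested. Nearly all of this sum came from Cd68, with 1.63, 9.67 and 7.39 CPM for Ctl MSC 1, 2 and 3 against 14.2, 1.66 and 0.789 CPM for MSC-TPr 1, 2 and 3, and from Cd14, with 193, 63 and 64 reads against 59, 223 and 238 reads in the same order. Cd68 and Cd14 thus split the libraries in opposite ways. Of the other 6 markers, Adgre1 had 0 reads in every library, and Ptprc, Itgam, Tyrobp, Lyz2 and Csf1r had between 0 and 18 reads per library. In bulk RNA, fewer cells of a type and less RNA per cell cannot be told apart.

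Other genes of haem breakdown differed in direction, and none passed the test with all 6 libraries. Hmox2, the constitutive haem oxygenase, averaged 32.1 ± 0.748 CPM for Ctl MSC against 28.6 ± 2.89 CPM for MSC-TPr (SD, n = 3 each), slightly lower without overlap (log2 fold change −0.17, edgeR adjusted p = 0.666). Blvra encodes the reductase of the biliverdin that HMOX1 makes, and measured 28.8, 13.1 and 14.6 CPM for Ctl MSC 1, 2 and 3 against 21.8, 33.1 and 31.2 CPM for MSC-TPr 1, 2 and 3. Its groups overlapped, with a log2 fold change of 0.61 using all 6 libraries (SE 0.352, edgeR adjusted p = 0.473), and it was called higher with the libraries numbered 2 and 3, at 1.22 (SE 0.132, edgeR adjusted p = 0.00127). Blvrb, which encodes the other biliverdin reductase, measured 29.8, 24.6 and 28.2 CPM across Ctl MSC, against 14.7, 22.9 and 18.1 CPM across MSC-TPr, without overlap (log2 fold change −0.57, SE 0.218, edgeR adjusted p = 0.296). Relative to exon length, the ratio of Hmox1 to Hmox2 was 22.5 to 26.9 in the Ctl MSC libraries and 43.7 to 64.3 in the MSC-TPr libraries.

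**Figure D3:**
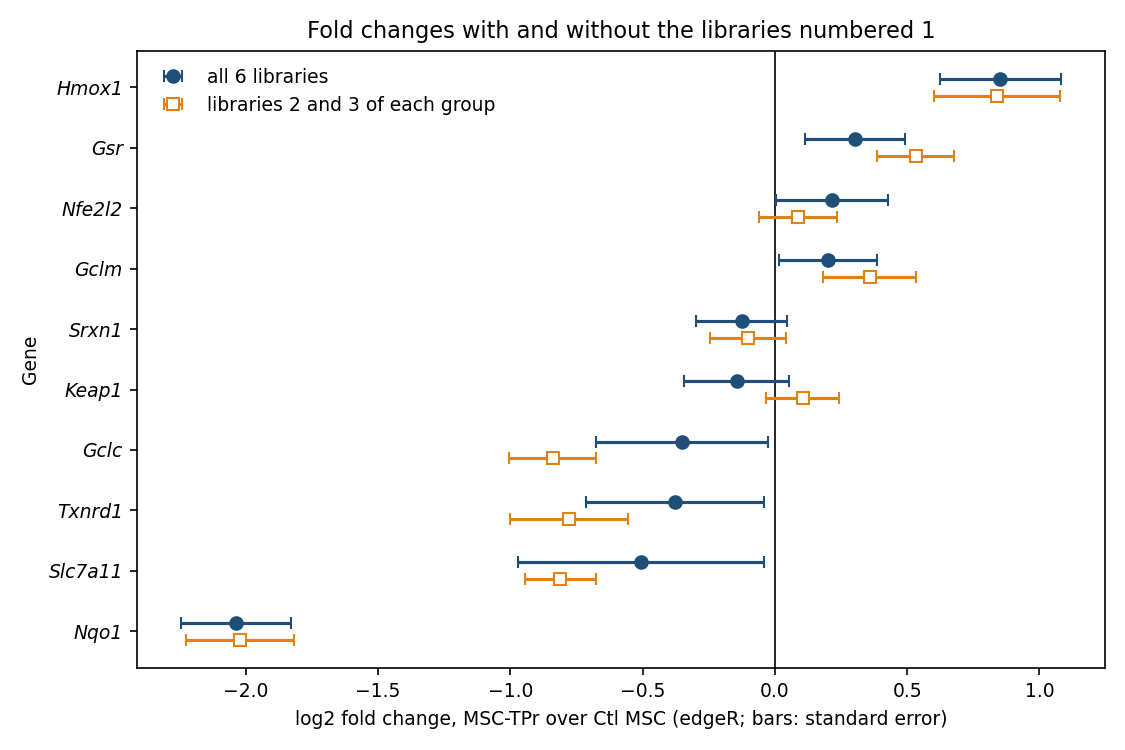
Log2 fold change of MSC-TPr over Ctl MSC with its standard error (edgeR) for each gene, with all 6 libraries (blue circles) and with libraries 2 and 3 of each group (orange squares). Nqo1 (−2.04 and −2.02) and Hmox1 (0.85 and 0.84) keep their values, while Gclc, Txnrd1 and Slc7a11 move from between −0.51 and −0.35 to between −0.84 and −0.78.

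The glutathione genes depended on the libraries used. Glutamate-cysteine ligase, the rate-limiting enzyme of glutathione synthesis, is made of a catalytic subunit (Gclc, chromosome 9 from 77754535 to 77794485) and a modifier subunit (Gclm, chromosome 3 from 122245557 to 122270732). Gclc measured 121, 234 and 226 CPM across Ctl MSC 1, 2 and 3, against 198, 147 and 109 CPM across MSC-TPr 1, 2 and 3. Its highest values were in Ctl MSC 2, Ctl MSC 3 and MSC-TPr 1, where the 20 cell division genes summed to 521 to 548 CPM, and the groups overlapped. The log2 fold change was −0.35 with all 6 libraries (SE 0.326, edgeR adjusted p = 0.660) and −0.84 over the libraries numbered 2 and 3 (SE 0.164, edgeR adjusted p = 0.00912), and between MSC-TPr 1 and Ctl MSC 1 it was 0.72. With the cell division level as a covariate it was −0.06 (SE 0.158, edgeR adjusted p = 0.839).

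Gclm measured 98.2, 78.4 and 85.2 CPM across Ctl MSC, against 91.6, 122 and 87.7 CPM across MSC-TPr, with overlapping groups (log2 fold change 0.20, SE 0.185, edgeR adjusted p = 0.658). With the libraries numbered 2 and 3 it was at 0.36 (edgeR adjusted p = 0.142). Its exons overlap the annotated genes Gm6061 and Gm17494, so its count carries some uncertainty. Gclc and Gclm did not run in parallel, as the ratio of Gclc to Gclm per exon length was 2.05, 4.98 and 4.42 across Ctl MSC 1, 2 and 3, against 3.62, 2.02 and 2.08 across MSC-TPr 1, 2 and 3.

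Slc7a11 encodes xCT, the cystine importer that supplies cysteine for glutathione and is induced by ATF4 as well as by NRF2. It lies on chromosome 3 from 49892526 to 50443614. It measured 113, 423 and 387 CPM across Ctl MSC 1, 2 and 3, against 189, 249 and 212 CPM across MSC-TPr 1, 2 and 3. The Ctl MSC libraries held both the lowest and the highest values, and the SD was 169 CPM across Ctl MSC, against 30.1 CPM across MSC-TPr. The log2 fold change was −0.51 with all 6 libraries (SE 0.465, edgeR adjusted p = 0.658) and −0.81 over the libraries numbered 2 and 3 (SE 0.135, edgeR adjusted p = 0.00520), and −0.03 with the cell division covariate (edgeR adjusted p = 0.976). Its heavy-chain partner Slc3a2 measured 287, 640 and 669 CPM across Ctl MSC, against 581, 589 and 458 CPM across MSC-TPr, lowest in Ctl MSC 1 as well (log2 fold change 0.03, edgeR adjusted p = 0.978).

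Gsr, glutathione reductase, returns oxidised glutathione to its reduced form and lies on chromosome 8 from 33652523 to 33698163. It measured 125, 97.8 and 97.7 CPM across Ctl MSC, against 114, 158 and 124 CPM across MSC-TPr, and the groups overlapped through Ctl MSC 1. Its log2 fold change was 0.30 with all 6 libraries (SE 0.190, edgeR adjusted p = 0.503) and 0.53 over the libraries numbered 2 and 3 (SE 0.146, edgeR adjusted p = 0.0284).

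In the thioredoxin arm, Txnrd1, the cytosolic thioredoxin reductase, lies on chromosome 10 from 82833951 to 82897712. It measured 892, 1723 and 1775 CPM across Ctl MSC 1, 2 and 3, against 1344, 1244 and 792 CPM across MSC-TPr 1, 2 and 3. As for Gclc, the highest values were in Ctl MSC 2, Ctl MSC 3 and MSC-TPr 1. Its log2 fold change was −0.38 with all 6 libraries (SE 0.336, edgeR adjusted p = 0.647), −0.78 over the libraries numbered 2 and 3 (SE 0.223, edgeR adjusted p = 0.0326) and −0.09 with the cell division covariate (edgeR adjusted p = 0.822). Srxn1, sulfiredoxin, which repairs over-oxidised peroxiredoxins, lies on chromosome 2 from 152105516 to 152111376. Its libraries overlapped, with 206, 235 and 245 CPM across Ctl MSC, against 182, 248 and 199 CPM across MSC-TPr (log2 fold change −0.12, SE 0.173, edgeR adjusted p = 0.786), and with the libraries numbered 2 and 3 it was at −0.10 (edgeR adjusted p = 0.592).

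The regulators themselves overlapped between the groups. Nfe2l2, on chromosome 2 from 75675513 to 75704641, measured 121, 180 and 185 CPM across Ctl MSC, against 177, 216 and 170 CPM across MSC-TPr (log2 fold change 0.22, SE 0.211, edgeR adjusted p = 0.683), and was at 0.09 with the libraries numbered 2 and 3 (edgeR adjusted p = 0.647). Keap1, on chromosome 9 from 21229730 to 21239361, measured 53.2, 40.1 and 42.1 CPM across Ctl MSC, against 34.3, 39.9 and 48.4 CPM across MSC-TPr (log2 fold change −0.14, SE 0.198, edgeR adjusted p = 0.785). Keap1 shares exon sequence with Gm16754 on the opposite strand, and the sources do not state whether counting used strand. With the libraries numbered 2 and 3 Keap1 was at 0.11 (SE 0.138, edgeR adjusted p = 0.558), the single change of direction among the 10 genes.

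The rest of the pathway was read from 9 lists with 107 other genes, of which 100 passed the filter on low counts. Over 6 libraries 3 of these, Gpx3, Gsta4 and Cbr1, were called lower, where 0.401% of all genes tested were, and 0 were called higher (edgeR), where 0.0251% were. At an unadjusted p under 0.05 there were 6 higher and 13 lower, against 15.0% of all genes in either direction, and DESeq2 called 0 higher and 5 lower (Cbr3 and Cyba in addition), against 4.07% of its genes. Without Ctl MSC 1 or MSC-TPr 1 the count called lower was 3, without MSC-TPr 2 it was 1, and without Ctl MSC 2, Ctl MSC 3 or MSC-TPr 3 it was 0. Over all genes, 105 of 12184 were called lower without Ctl MSC 1, 33 of 12260 without MSC-TPr 1 and 1 of 12222 without MSC-TPr 2. Without Ctl MSC 2, Ctl MSC 3 or MSC-TPr 3, 0 of all genes tested were called lower. The median log2 fold change of the 100 genes was −0.04. The groups did not overlap for 7 higher and 15 lower genes, against 10.6% and 12.1% of all genes tested.

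**Figure D4:**
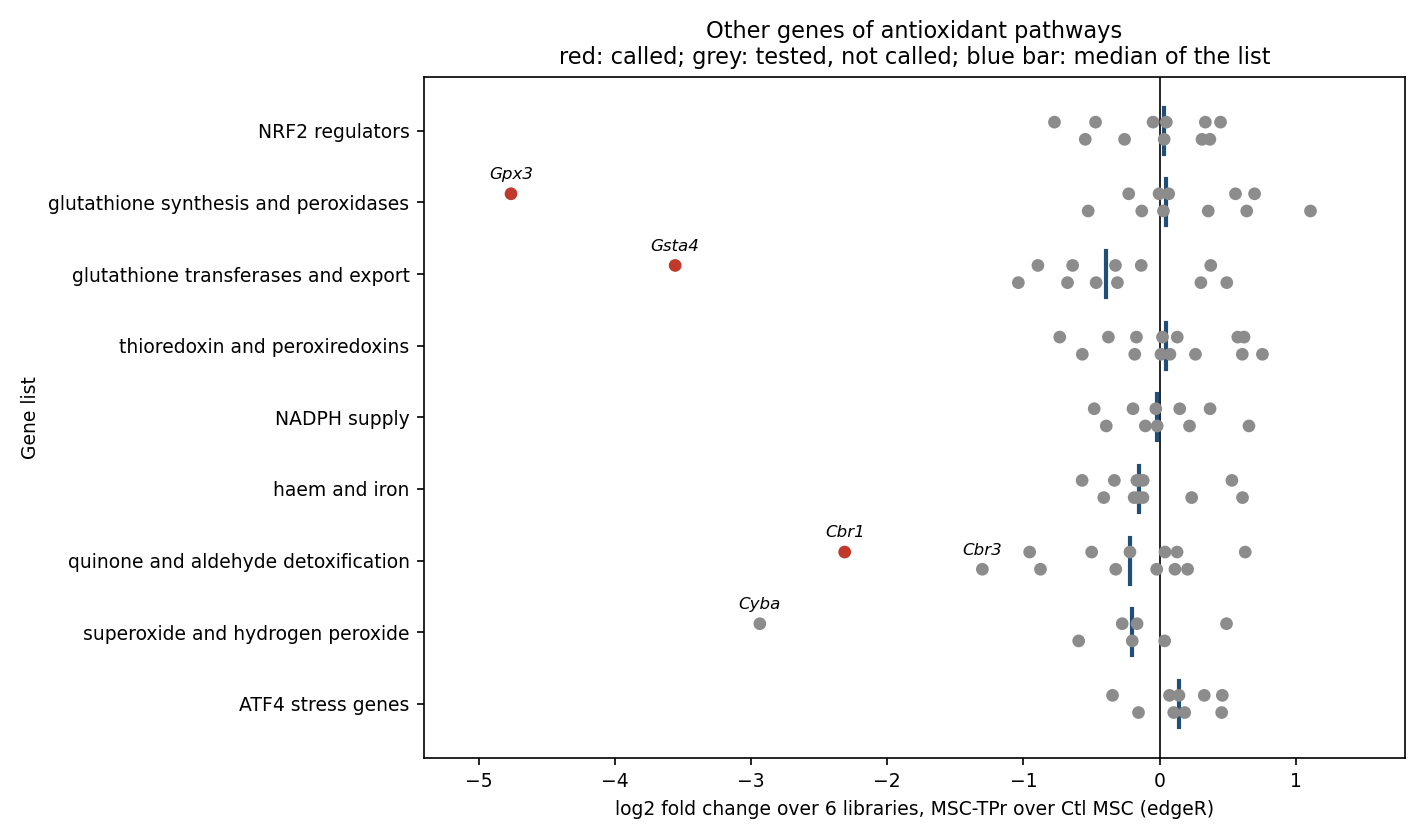
Log2 fold change over 6 libraries (edgeR) of the genes of 9 lists, 1 point per gene tested, with called genes in red and the median of each list as a blue bar. The called genes Gpx3, Gsta4 and Cbr1 lie at −4.76, −3.56 and −2.31, each below the median of its list.

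Among 12 genes of glutathione transferases and export that passed the filter, 1 was called lower and 0 higher. Of all genes tested, 0.401% were called lower and 0.0251% higher. At an unadjusted p under 0.05 this list had 4 lower and 0 higher, against 15.0% of all genes in either direction. Its median log2 fold change was −0.40. Gsta4, a transferase specialised in the lipid peroxidation product 4-hydroxynonenal, measured 119, 125 and 139 CPM across Ctl MSC, against 8.58, 15.6 and 8.44 CPM across MSC-TPr. Gsta4 fell, with a log2 fold change of −3.56 from all 6 libraries (SE 0.292, edgeR adjusted p = 0.0112) and −3.47 from the libraries numbered 2 and 3 (SE 0.284, edgeR adjusted p = 0.000504). Gstp1 measured 177, 315 and 346 CPM across Ctl MSC, against 141, 173 and 138 CPM across MSC-TPr, without overlap (log2 fold change −0.89, SE 0.274, edgeR adjusted p = 0.220), and its reads can be shared with near-identical Gstp copies.

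Of 13 genes of quinone and aldehyde detoxification, 1 was called lower and 0 higher, against 0.401% and 0.0251% of all genes tested. At an unadjusted p under 0.05 there were 4 lower and 0 higher, against 15.0% of all genes in either direction. Cbr1, a carbonyl reductase of quinones and ketones, measured 20.3, 25.7 and 25.6 CPM across Ctl MSC, against 5.26, 5.26 and 3.90 CPM across MSC-TPr, and fell by 2.31 on the log2 scale (SE 0.226, edgeR adjusted p = 0.0189). Cbr3, a related reductase, measured 9.79, 9.67 and 11.1 CPM and 3.71, 4.50 and 4.17 CPM in the same order (log2 fold change −1.30, SE 0.209, edgeR adjusted p = 0.0739). The groups did not overlap for either gene. Over the libraries numbered 2 and 3, Cbr1 and Cbr3 were both called lower, at −2.49 and −1.26 (edgeR adjusted p = 0.000366 and 0.00324).

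Of 12 genes of glutathione synthesis and peroxidases, 1 was called lower and 0 higher, against 0.401% and 0.0251% of all genes tested. The median log2 fold change of these 12 genes was 0.05. Gpx3, a secreted glutathione peroxidase, measured 29.1, 19.2 and 19.0 CPM across Ctl MSC, against 0.221, 1.06 and 1.16 CPM across MSC-TPr (4, 18 and 25 reads). Its log2 fold change was −4.76 with all 6 libraries (SE 0.585, edgeR adjusted p = 0.0352) and −4.08 over the libraries numbered 2 and 3 (SE 0.191, edgeR adjusted p = 0.000112). Gpx4, which protects membranes from lipid peroxides, measured 286 ± 25.8 CPM and 299 ± 34.8 CPM (SD, n = 3 each), with a log2 fold change of 0.07 (edgeR adjusted p = 0.882).

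None of the other 6 lists had a called gene (edgeR, 6 libraries), where 0.426% of all genes tested were called. They held between 0 and 3 genes per direction at an unadjusted p under 0.05, against 15.0% of all genes in either direction. In the superoxide list, Sod2, the mitochondrial superoxide dismutase, measured 60.8, 50.5 and 54.8 CPM across Ctl MSC, against 74.0, 85.8 and 73.8 CPM across MSC-TPr (log2 fold change 0.49, SE 0.148, edgeR adjusted p = 0.216). Cyba, the p22phox subunit of NADPH oxidases, averaged 3.40 ± 0.241 CPM for Ctl MSC against 0.445 ± 0.237 CPM for MSC-TPr (SD, n = 3 each). Its log2 fold change was −2.94 (SE 0.471, edgeR adjusted p = 0.0739), and DESeq2 called it lower. These values rest on few reads: 60, 64 and 57 across Ctl MSC, against 9, 11 and 4 across MSC-TPr. MSC-TPr 3, at 0.186 CPM, lay near its lowest detectable amount of 0.139 CPM. Among the NADPH suppliers, Taldo1 of the pentose phosphate pathway was at 0.66 (edgeR adjusted p = 0.223), Pgd of the same pathway at −0.48 (edgeR adjusted p = 0.274) and Idh2 at −0.39 (edgeR adjusted p = 0.502) on the log2 fold change scale, each without overlap between the groups. Idh2 was at −0.05 with the libraries numbered 2 and 3.

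Among 11 regulators of NRF2, Cul3, the ubiquitin ligase scaffold that KEAP1 recruits, measured 149, 134 and 137 CPM across Ctl MSC, against 152, 195 and 182 CPM across MSC-TPr (log2 fold change 0.34, SE 0.152, edgeR adjusted p = 0.364). Mafk, a small MAF partner, was at 0.37 (edgeR adjusted p = 0.512), also without overlap. Bach1 and Mafg, another small MAF, had overlapping groups, at −0.77 and −0.55 (edgeR adjusted p = 0.453 and 0.490). With the libraries numbered 2 and 3 both were called lower, at −1.41 and −0.97 (edgeR adjusted p = 0.00454 and 0.00166). Of the 11 regulators, 4 were then called lower and 0 higher, where 19.4% and 20.6% of all genes tested were. Over all 6 libraries, Txnrd3 and Txnrd2, relatives of Txnrd1, were at 0.57 (edgeR adjusted p = 0.261) and 0.13 (edgeR adjusted p = 0.810). Fech, which inserts iron into protoporphyrin to form haem, was at −0.41 (edgeR adjusted p = 0.242). Psat1, a serine synthesis gene of the ATF4 list, was at 0.46 (edgeR adjusted p = 0.399). With the libraries numbered 2 and 3 alone, 24 of 102 list genes tested were called higher and 26 lower, where 20.6% and 19.4% of all genes tested were.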

How the data were processed

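RNA-seq of 3 Ctl MSC and 3 MSC-TPr libraries was analysed, grouped by sample title. The deposited values are raw counts per gene, which the authors made with Htseq-count on mm10; the submitters' processing notes also name CASAVA 1.8.2, Trimmomatic 0.35 and TopHat2 2.1.0. Rows that name no gene (13.8% to 20.8% of listed reads) were left out of library sizes. Counts were fitted in R 4.3.3 with edgeR 4.0.16 (TMM, filterByExpr, quasi-likelihood test, group as the only term, Benjamini-Hochberg over all genes tested), and DESeq2 1.42.0 was an alternative. CPM used TMM-scaled library sizes, and CPM per kb the union of GENCODE M21 exons, which counts exons that these cells may not use. SEs were taken as the fold change on the log2 scale divided by the root of F. Libraries were compared by the root mean square difference of log2(CPM + 0.5). Both tools were also run on simulated counts in which no library stood apart from its group, unlike in these data.

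The members, lists and tests were chosen with earlier results of these data known. Named genes were the 10 members, any called list gene and, per list and direction, up to 2 genes of largest log2 fold change whose groups did not overlap, at a mean log2 CPM no lower than 1. Adgre1 was read from its older symbol. Partner genes, Bach1 and Mafg were named for their role, with values seen.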

Additional observations from a re-analysis of the deposited data

How the results depend on the processing

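The counts depended mainly on the libraries and the model. Against 0 members called higher and 1 lower, DESeq2 called 1 higher, the cell division covariate 1 higher, the libraries numbered 2 and 3 alone 2 higher and 4 lower, and the replicate block 0 lower; leaving out 1 library gave 0 to 1 lower. Against 0 list genes higher and 3 lower, the libraries numbered 2 and 3 gave 24 and 26, and the covariate 4 and 12. DESeq2 gave 5 lower, the block 0 lower, and leaving out 1 library 0 to 3 lower. A minimum of 10 counts in every library gave 2 lower, as Gpx3, with 4 reads in MSC-TPr 1, was then not tested. Over all genes the calls were 3 higher and 48 lower, with 0 under the block, 244 and 439 with DESeq2, 564 and 880 with the covariate and 2498 and 2356 with the libraries numbered 2 and 3. Leaving out 1 library gave 0 to 11 genes higher and 0 to 105 lower over all genes. Keap1 changed direction, to 0.11, with the libraries numbered 2 and 3; the cause was not tested.

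Between libraries of the same number, the deviations from each group's mean correlated at −0.77, −0.62 and −0.62 across genes. The libraries numbered 1 stood apart from their groups in opposite directions, which affects each of these values. The correlations therefore cannot tell whether the numbers pair libraries. With the replicate block Nqo1 stayed at −2.05 (edgeR adjusted p = 0.328) and Hmox1 at 0.82 (edgeR adjusted p = 0.738). RLE or upper quartile normalization, no filter or a minimum of 10 counts, and a log2 fold change threshold of 0 or 1 left the counts of called members as they were. Among the alternative values of the 10 members, 126 kept direction and side of the threshold, 7 moved past it, 6 no longer passed and 1 changed direction.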

Other observations

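Genes beside those that moved most were read after the values were seen, taking tested genes in order of position (GENCODE M21). The neighbours of Nqo1 were not called: Nfat5, 8708 bases away, was at −0.12 on the log2 fold change scale (edgeR adjusted p = 0.884), and Nob1, 9280 bases away on the other side, was at 0.58 (edgeR adjusted p = 0.226), in the opposite direction. Beside Hmox1, Tom1 was at 0.00 (edgeR adjusted p = 0.998) and Mcm5, a DNA replication gene, at 0.97 with an SE of 0.935. Gpx3 and its neighbour Tnip1, 408 bases apart, were at −4.76 and 0.03 (edgeR adjusted p = 0.950 for Tnip1). Beside Gsta4, Gsta1 was at −3.22 (edgeR adjusted p = 0.118) and Gm3776 at −2.56 (edgeR adjusted p = 0.225), both without overlap between the groups. Gsta1 and Gm3776 are alpha-class transferase genes with near-identical copies, so their counts are uncertain. On the other side of Gsta4, C920006O11Rik, 3895 bases away, was at −0.55 (edgeR adjusted p = 0.555) with overlapping groups. Ick, 10667 bases away on that side, was at −0.73 (edgeR adjusted p = 0.210) without overlap. Setd4, 1790 bases from Cbr1, was at −0.68 (edgeR adjusted p = 0.523) with overlapping groups, and Cbr3, 72710 bases away on the other side, was at −1.30 (edgeR adjusted p = 0.0739) without overlap.

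Over the 10 members together, MSC-TPr 1 was nearest to MSC-TPr 2 (root mean square log2 difference 0.385) and Ctl MSC 1 to Ctl MSC 3 (0.757), whereas over all genes both were nearest to a library of the other label. Ctl MSC 1 was almost as near to MSC-TPr 3 (0.786), at the same distance as to Ctl MSC 2 (0.787) within rounding, so its place by label was weak. Without Nqo1, Ctl MSC 1 was nearest to MSC-TPr 3 (0.419), and MSC-TPr 1 stayed nearest to MSC-TPr 2 (0.381). MSC-TPr 3, which was nearest to MSC-TPr 1 over the 10 members (0.411), was then nearest to Ctl MSC 1.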
